A study of Homo sapiens with 26 samples.

Results

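Chromosome 3 was described here in single cells as it is marked by Dam, through the 1949 bins of 100 kb that had a value above 0 in at least 1 of 26 cells. These are 1949 of the 1981 bins the file gives for the chromosome (hg19) and of 26331 such bins in all. Of the bins left out, 30 had no value in any cell and 2 were 0 in all cells. They lie in a gap from chr3:90500001-93500000 that holds the centromere and at the tip of the long arm. The gap splits the chromosome into a short arm (3p) of 905 bins and a long arm (3q) of 1044 bins.

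All 26 cells form 1 group: KBM7, a leukaemia line with a nearly haploid genome, clone 5-8, labelled 1N and Dam only. The Dam protein was stabilised with 0.5 nM Shield1 for 15 h, and single cells were sorted from the smallest 2% that were positive for both markers of the Fucci cell cycle reporter. The series title names lamin B1 but the label of each sample and the design text name Dam alone, and the labels were followed. All cells come from 1 clone and no separate cultures are named, so each SD describes how cells of 1 clone differ, and no test was run.

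Dam is a bacterial enzyme that methylates adenine within GATC. Expressed in human cells without a fused chromatin protein, it marks the DNA it can reach. Open, gene-rich chromatin is known to be marked more than compact chromatin. Stained chromosomes show Giemsa-light bands, which are known as gene-rich and early replicating, and Giemsa-dark bands, which are gene-poor and often lie at the nuclear lamina. On chromosome 3 the gene-rich band best known in cancer genetics is 3p21, which holds the tumour suppressor genes RASSF1, BAP1, PBRM1 and SETD2 and a cluster of chemokine receptor genes, and which is often lost in lung and kidney tumours.

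The values are ratios of observed over expected signal per bin. They are given below relative to the mean of all used bins of the same cell, so that 1 is the genome-wide mean of that cell. The counts recovered behind the ratios came to 106164 on chromosome 3 over all cells, and to between 0.671 and 6.49 per bin in a cell. At that depth a single bin in a single cell says little, and values were averaged over windows, bands or cells. Cell 22 stood apart from the others, as described below, and several results that rest on it are given with and without it. As a whole the chromosome was slightly under the mean: its relative ratio averaged 0.928 ± 0.124 (SD, n = 26 cells), against 1.02 ± 0.0121 on the other autosomes, and counting alone would give an SD of 0.0174 on chromosome 3.

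The first question was how the gene-rich 3p21, taken as 44 to 54 Mb (100 bins), compared with the remaining 1849 bins of the chromosome. Dam marked 3p21 more than the rest of the chromosome in nearly all cells. The relative ratio in 3p21 ran from 0.938 in cell 22 over a median of 1.71 to 2.54 in cell 21, while the rest of chromosome 3 ran from 0.683 in cell 10 over a median of 0.876 to 1.22 in cell 21. In 25 of 26 cells 3p21 was above 1, and in the same number it was above the rest of the chromosome, cell 22 being the exception at 0.846-fold. That exception depended on the setting. With 3p21 taken by its sub-band limits, or with the share of bins at 1 or more, 3p21 was higher in all 26 cells. The means were 1.77 ± 0.344 in 3p21 and 0.882 ± 0.126 in the rest (SD, n = 26). Within a cell the fold averaged 2.03 ± 0.430, and the log2 ratio was 0.99 ± 0.34, or 1.03 without cell 22. Counting error was a small part of this: summed over cells, 3p21 held 10016 counts, a level of 1.80 times the genome per unit of expectation (exact 95% Poisson interval 1.76 to 1.83), and the rest held 96148, a level of 0.904 (0.898 to 0.910). These intervals cover counting error only.

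**Figure D1:**
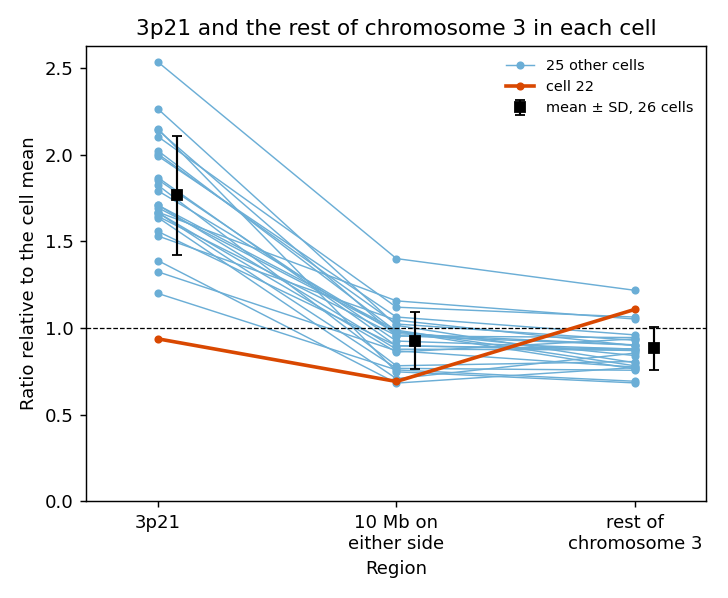
Ratio relative to the cell mean (vertical axis) in 3p21, in the 10 Mb on either side of it and in the rest of chromosome 3 (horizontal axis). Lines join the values of 1 cell, squares and bars are the mean ± SD of 26 cells, and the dashed line is the cell mean. The value in 3p21 is above that in the rest of the chromosome in 25 cells and below it in cell 22.

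The neighbouring stretches did not share this level. The flanks of 3p21, at 34 to 44 Mb and 54 to 64 Mb (200 bins), had a mean of 0.927 ± 0.162, and 3p21 was higher than its flanks in all 26 cells, with a log2 ratio of 0.92 ± 0.25. Of all stretches of 10 Mb on the chromosome, moved in steps of 1 Mb, the one from 44 to 54 Mb was the highest of 179. The GC content, GATC density and DNA copy number of these regions were not analysed, so their part in this difference was not tested.

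Inside 3p21 the level was not flat. All 10 windows of 1 Mb averaged above 1 and 6 of them were among the 10 highest of the 194 windows of the chromosome. The highest was chr3:49000001-50000000, in 3p21.31, which averaged 2.27 ± 0.714 and was above 1 in 25 cells. A second peak lay at chr3:52000001-53000000, at 1.99 ± 0.756, and between them chr3:51000001-52000000 dipped to 1.48 ± 0.460. The lowest window was the one at the telomere side, chr3:44000001-45000000, at 1.38 ± 0.330. Within a cell, chr3:49000001-50000000 was above the dip in 25 of 26 cells, by 0.792 ± 0.647, and above the telomere-side window in 24, by 0.896 ± 0.668. The second peak was above the dip in 19 cells, by 0.511 ± 0.830, and below the first in 17, so neither of these was larger than the spread between cells. The windows were paired after their values were seen, and counting alone gives a window of 3p21 an SD of 0.292 to 0.409.

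The edges of the raised stretch differed. On the telomere side the next windows were lower but still above 1: chr3:43000001-44000000 averaged 1.17 ± 0.460 and chr3:42000001-43000000 averaged 1.29 ± 0.403, so that 12 windows in a row, from 42 to 54 Mb, were above 1. On the centromere side the level changed from 1 window to the next: chr3:53000001-54000000 stood at 1.73 ± 0.605 and chr3:54000001-55000000 at 0.845 ± 1.09. Cell 22 reached 5.92 just past the band, in chr3:54000001-55000000, which averaged 0.642 without it. A separate peak lay in 3p14.3, where chr3:57000001-58000000 averaged 1.66 ± 0.483 and was above 1 in 22 cells.

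**Figure D2:**
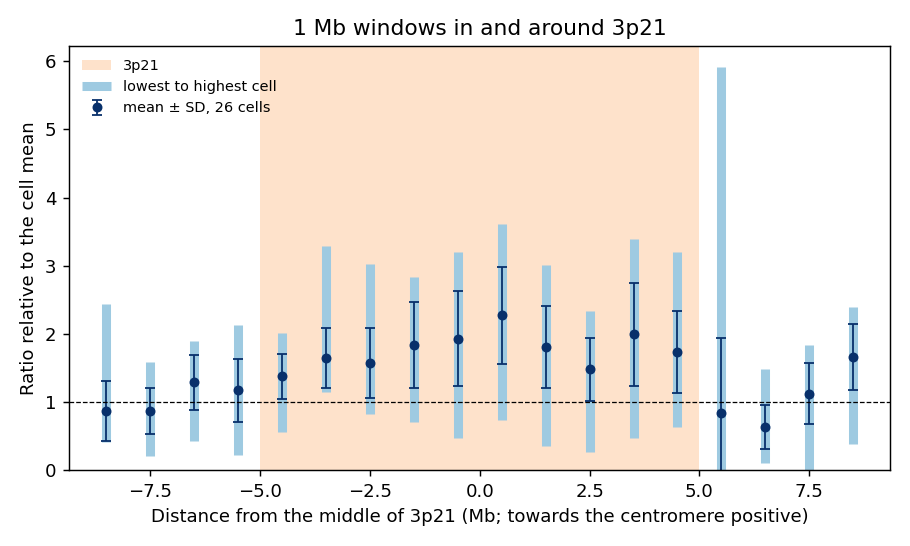
Ratio relative to the cell mean (vertical axis) of 1 Mb windows by their distance from the middle of 3p21 in Mb (horizontal axis, towards the centromere positive). Points and bars are the mean ± SD of 26 cells, pale bars run from the lowest to the highest cell, and the shaded stretch is 3p21. Its 10 windows average between 1.38 and 2.27, and the tall pale bar just past its centromere side ends at cell 22.

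By ideogram sub-band, 3p21.31 had the highest level of the 58 sub-bands with at least 8 bins, 1.82 ± 0.363 over 64 bins, and was above 1 in all 26 cells. Sub-band 3p21.2, which stains dark, followed at 1.73 ± 0.409, and 3p21.1, which holds BAP1 and PBRM1, stood at 1.56 ± 0.451. Leaving out 3q29, each of the 20 other bands of chromosome 3 was lower than 3p21 in at least 22 cells. Band 3q29 was lower in 19 cells, and over the terminal 5 Mb of the long arm 3p21 was higher in 16. Against whole gene-dense chromosomes, 3p21 was higher than chromosome 17 (1.47 ± 0.205) in 23 cells and higher than chromosome 19 (1.65 ± 0.469) in 21. That sets a high stretch against whole chromosomes: among the highest 10 Mb of each of the 22 chromosomes used, 3p21 had rank 8, and the highest 10 Mb averaged 1.93 ± 0.399 on chromosome 17 and 2.14 ± 0.692 on chromosome 19.

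The second question was how the remaining bands were ordered. The chromosome alternates between marked and unmarked stretches, and 10 of its 22 bands averaged above 1. After 3p21, the highest bands were 3q29 at 1.54 ± 0.336 (SD, n = 26), 3q27 at 1.50 ± 0.214, 3p25 at 1.37 ± 0.329 and 3q21 at 1.22 ± 0.268. Band 3q29, which ends the long arm, holds the gene of the transferrin receptor TFRC. Band 3q27, known for the transcriptional repressor gene BCL6 and the translation factor gene EIF4G1, was the one band above 1 in all 26 cells. Band 3p25, which holds the genes VHL and PPARG, and band 3q21, which holds the blood cell transcription factor gene GATA2, were above 1 in 22 cells each.

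At the low end, band 3p12 averaged 0.386 ± 0.120 over 130 bins. It was below 1 in all 26 cells and ran from 0.148 over a median of 0.394 to 0.628 in cell 21. This band is known for very long genes of the nervous system, among them the axon guidance receptors ROBO1 and ROBO2 and the adhesion gene CADM2. The bands next to the centromere came next, 3p11 at 0.478 ± 0.236 and 3q11 at 0.489 ± 0.238, then 3q24 at 0.549 ± 0.331 and 3q28 at 0.694 ± 0.387. Each of these was below 1 in the same 25 cells and above 1 in cell 22. Without that cell the means were 0.445 in 3p11, 0.450 in 3q11, 0.489 in 3q24 and 0.624 in 3q28.

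Bands 3p21 and 3p12 stayed near the ends of the order in most cells, but exact ranks varied between cells. Band 3p21 ranked highest of the 22 in 16 cells and among the highest 3 in 25, with rank 12 in cell 22. Band 3p12 ranked lowest in 11 cells and among the lowest 3 in 23. Of 21 pairs of bands that were neighbours in the order of means, 2 were ordered alike in at least 21 cells: 3p25 above 3q21 in 22, and 3q28 above 3q24 in 23. The other neighbours differed by less than the spread between cells, 3q29 and 3q27 among them, where 3q29 was higher in 16 cells.

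**Figure D3:**
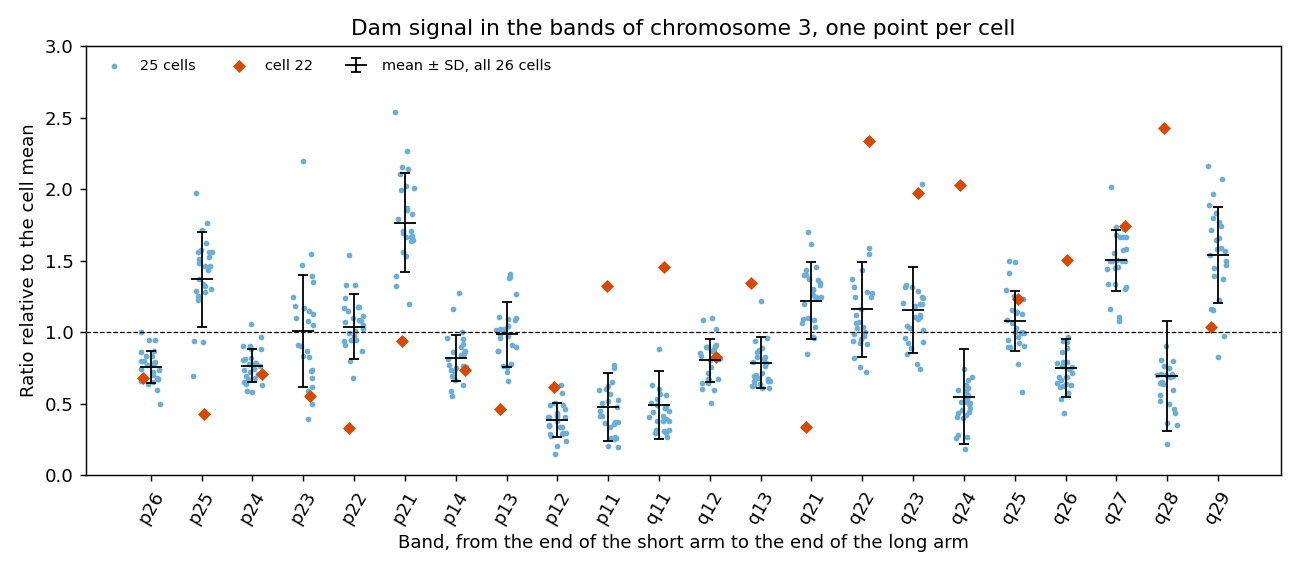
Ratio relative to the cell mean (vertical axis) in the 22 bands of chromosome 3, from the tip of the short arm to that of the long arm (horizontal axis). Each point is 1 cell, diamonds are cell 22, and bars are the mean ± SD of 26 cells. Band p21 has the highest mean, 1.77, and p12 the lowest, 0.386, and cell 22 lies outside all other cells in 12 of the bands.

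Seen in windows of 1 Mb, 78 of 194 averaged above 1 and 41 below 0.5. The longest unbroken stretch under 1 ran for 17 windows at chr3:73000001-90000000, from 3p13 into 3p11, with a mean of 0.431, and the next for 12 windows at chr3:59000001-71000000, with a mean of 0.664. The longest stretch above 1 was the one around 3p21, with a mean of 1.68 over 12 windows, followed by 10 windows at chr3:9000001-19000000 with a mean of 1.31. Outside 3p21, the highest windows were chr3:196000001-197000000 at 2.08 ± 0.653 and chr3:195000001-196000000 at 2.02 ± 1.01, both in 3q29, then chr3:128000001-129000000 in 3q21 at 1.87 ± 0.649 and chr3:9000001-10000000 in 3p25 at 1.83 ± 0.687.

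The lowest window was chr3:165000001-166000000 in 3q26, at 0.263 ± 0.162 from 148 counts in all cells together. In this window all 26 cells were below 1, and the highest was cell 5 at 0.677. Of the 10 lowest windows, 4 lay in 3q26 (chr3:162000001-163000000 and the 3 from 164 to 167 Mb) and 4 in 3p12 (76 to 78 Mb, 83 to 84 Mb and 85 to 86 Mb). The remaining pair were chr3:103000001-104000000 in 3q13, at 0.326 ± 0.163, and chr3:96000001-97000000 in 3q11, at 0.343 ± 0.218.

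**Figure D4:**
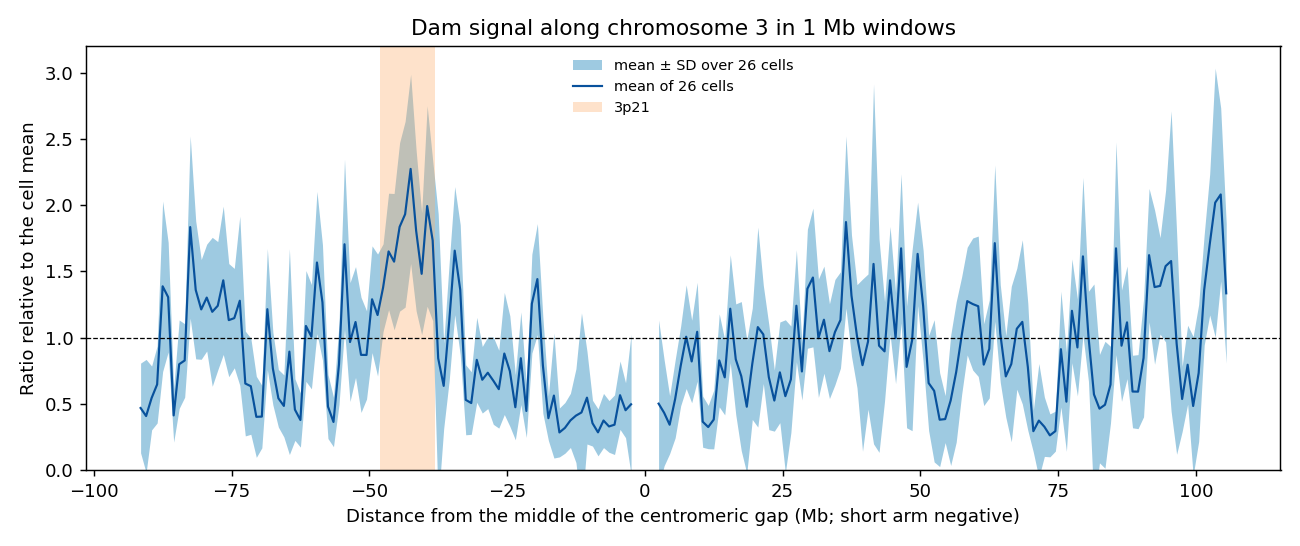
Ratio relative to the cell mean (vertical axis) in 1 Mb windows of chromosome 3 by distance from the middle of the centromeric gap in Mb (horizontal axis, short arm negative). The line is the mean of 26 cells, the pale band is ± SD, and the shaded stretch is 3p21. The profile is highest in 3p21 and at the end of the long arm and stays under 1 for 17 windows on the short arm side of the gap.

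The contrast along the chromosome was set beside that of the others. The SD over 1 Mb windows of the log2 level was 0.74 on chromosome 3, rank 7 of the 22 chromosomes used (the joined chromosomes 9:22 and 22:9 among them), against 0.72 on chromosome 2, 0.68 on chromosome 5 and 0.66 on chromosome 7, which have mean levels close to its own. Over stretches of 10 Mb, chromosome 3 ran from 1.77 ± 0.344 at the highest (3p21) to 0.372 ± 0.128 at the lowest (76 to 86 Mb), a 4.74-fold range. That was rank 2 of 22, after chromosome 1 at 5.06-fold. Without bins of low expectation it was rank 1, since chromosome 3 still gave 4.74 and chromosome 1 gave 3.87. Stretches of 10 Mb were picked as extremes on each chromosome, and no test was made.

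As wholes, the arms differed by less than the spread between cells. The short arm averaged 0.915 ± 0.132 and the long arm 0.939 ± 0.168 (SD, n = 26), with 13 cells on each side, a log2 ratio of -0.03 ± 0.25. Cell 22 had by far the lowest ratio, at -1.16, and without it the mean was 0.01. Without 44 to 54 Mb, the short arm stood at 0.809 ± 0.121 and was below the long arm in 25 cells, with a log2 ratio of -0.21 ± 0.23, a comparison added after the data were seen. Taking the highest stretch out of 1 arm lowers that ratio by construction.

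The chromosome ends went opposite ways. The terminal 5 Mb of the long arm averaged 1.68 ± 0.425, above 1 in 24 cells, and was higher than the rest of the chromosome in 25, with a log2 ratio of 0.85 ± 0.43. The terminal 5 Mb of the short arm averaged 0.692 ± 0.152 and was lower than the rest in 25 cells, with a log2 ratio of -0.46 ± 0.32. Within the short arm end, the outer 4 windows were between 0.409 and 0.647, and the fifth, chr3:4000001-5000000 in 3p26.1, averaged 1.39 ± 0.643 and was above 1 in 21 cells. Sub-band 3p26.3, which holds the neural adhesion genes CHL1 and CNTN6, was at 0.460 ± 0.241. Both values depended on the size chosen: over 10 Mb the log2 ratio was 0.38 at the long arm end and -0.11 at the short arm end.

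Giemsa-light sub-bands (802 bins) were marked more than dark ones (1073 bins) in all 26 cells. The means were 1.14 ± 0.150 in light and 0.797 ± 0.117 in dark sub-bands (SD, n = 26), and the log2 ratio was 0.52 ± 0.12. It stayed at 0.46 ± 0.10 without 3p21, again higher in 26 cells. The lowest ratio was that of cell 22, 0.15. Among 54 pairs of adjoining light and dark sub-bands, the light one had the higher mean in 42.

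Some pairs went the other way. Light 3p14.2, which holds the very long genes FHIT and PTPRG and is known as the most active common fragile site in human cells, was at 0.624 ± 0.159, below 1 in 25 cells. Its dark neighbours were at 1.21 ± 0.232 in 3p14.3 and 0.730 ± 0.232 in 3p14.1. On the long arm, dark 3q22.3 was at 1.39 ± 0.311, above 1 in 24 cells, against light neighbours of 0.968 ± 0.739 in 3q22.2 (0.837 without cell 22) and 1.14 ± 0.293 in 3q23. Among the dark sub-bands, 3q26.1, which holds the enzyme genes BCHE and SI, was at 0.450 ± 0.251. The adjoining light 3q26.2, which holds the leukaemia gene MECOM and the telomerase RNA gene TERC, was at 0.919 ± 0.216.

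The next question was which bins the cells shared. Ratios of 1 or more counted as positive. On chromosome 3, 89 of 1949 bins (4.57%) were positive in at least 80% of the cells, where the share over all used bins of the genome was 5.61%. A further 726 bins (37.2%) reached that level in no more than 20% of cells, against 33.5% genome-wide. Both shares were near the background. No bin was positive in all 26 cells and 18 were positive in none. In cell 26 only 33.6% of the bins had a value above 0, so no more than that share could be positive in every cell. The part of depth in these counts of bins was not tested.

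By share of its own bins, 3p21 was the band richest in shared bins. It held 25 of the 89 (28.1%), while making up 5.13% of the bins. Among its own 100 bins the share was 25.0%, against 3.46% of the other 1849 bins (64 bins). High shares were not limited to 3p21: they were 16.9% in 3q29, 14.0% in 3q27 and 11.4% in 3p25. All other bands were at 7.5% or less. These shares follow in part from the mean levels, since both come from the same ratios. Only 1 bin of 3p21 was positive in few cells, against 725 elsewhere (39.2%). By cell, the share of positive bins in 3p21 had a median of 64%, from 37.0% in cell 22 to 81.0% in cell 1. In the rest of the chromosome it ran from 25.7% to 45.5%. Cell 1 had the most counts, 178941, and cell 22 had 21105, while cell 21, with 20182, was at 74% in 3p21. The part of depth in these ranges was not tested. Light sub-bands held 62 of the shared bins (7.73% of their bins) and dark ones 27 (2.52%). The bins that few cells marked made up 178 of the 802 light bins and 488 of the 1073 dark bins.

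Shared bins were scattered. They formed 68 blocks, of which 50 were single bins, and the longest had 3 bins: chr3:10100001-10400000 in 3p25 at 2.44 ± 1.04, chr3:50100001-50400000 in 3p21 at 2.52 ± 1.10 and chr3:196300001-196600000 in 3q29 at 3.15 ± 1.27. The 726 bins positive in few cells formed 209 blocks, of which the 17 with 10 or more bins covered 273 bins. Longer blocks follow in part from the larger number of such bins. After the block of 45 bins at chr3:162400001-166900000 came chr3:95500001-97500000 (20 bins, 0.360 ± 0.162), next to the centromere on the long arm, and chr3:77400001-79300000 (19 bins, 0.361 ± 0.160) and chr3:85100001-87000000 (19 bins, 0.312 ± 0.140), both in 3p12. No cell was above 1 in any of these 4 blocks. Blocks of both kinds were chosen by these same ratios, so their high or low levels follow in part from that choice.

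Of single bins with an expectation of at least 0.5 times the median, the highest was chr3:195800001-195900000 in 3q29, at 4.76 ± 3.63 from 224 counts, positive in 24 cells. The bin at chr3:196300001-196400000, in the same band, averaged 4.58 ± 2.71 and was positive in 25 cells. Then came chr3:121700001-121800000 in 3q13 at 3.69 ± 2.13, chr3:45600001-45700000 at 3.67 ± 3.40 and chr3:52200001-52300000 at 3.47 ± 2.30, each positive in 25 cells. The last 2 lie in 3p21. These SDs include the counting error of single bins.

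The final question was how far each cell followed the shared profile. Over the 194 windows, the Pearson correlation of a cell with the mean of the other cells was above 0.5 in 25 cells, from 0.535 in cell 23 to 0.900 in cell 14, and was -0.104 in cell 22. The windows within a cell share its library and depth and are not independent. Cell 22 had 21105 counts, and cell 21, with 20182, gave 0.758. With all cells thinned to 20000 counts the value was -0.102 in cell 22 and 0.526 or more in each of the others.

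Cell 22 had 40 windows above 2, against 36 in cell 21, and 48 below 0.25, as many as cell 10. The SD over its windows was 1.33, the highest of the 26 cells. Its highest stretch, 4 windows at chr3:131000001-135000000, averaged 4.68, where the other cells averaged 0.920, and 3 windows at chr3:187000001-190000000 averaged 4.22, where the others averaged 0.896. In contrast, 23 windows at chr3:56000001-79000000 averaged 0.322, where the others averaged 0.780, and 4 windows at chr3:125000001-129000000 averaged 0.201, where the others averaged 1.28. Cell 22 was above all other cells in 7 bands (3p11, 3q11, 3q13, 3q22, 3q24, 3q26 and 3q28) and below all of them in 5 (3p25, 3p22, 3p21, 3p13 and 3q21). Of those 7 bands, 3p11, 3q11, 3q24 and 3q28 are among the lowest in the other cells.

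**Figure D5:**
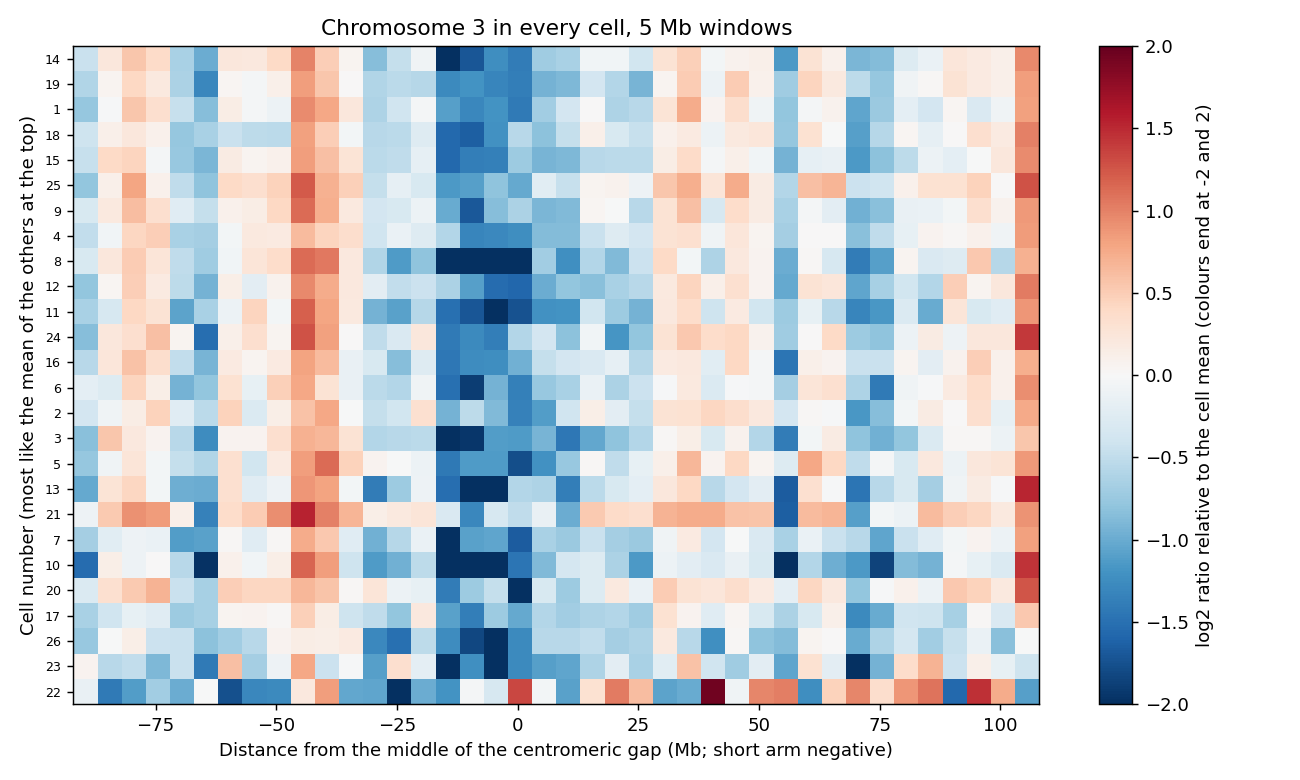
Chromosome 3 in each of the 26 cells (rows, those most like the mean of the others at the top) in 5 Mb windows by distance from the middle of the centromeric gap in Mb (horizontal axis, short arm negative). Colour gives the log2 ratio relative to the cell mean, red above and blue below. A red stripe at 3p21 and a blue one at 3p12 run down most cells, and cell 22, at the bottom, has a different pattern with its highest stretches on the long arm.

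The other cells also differed from one another by more than counting gives. Without cell 22 the SD between cells was 6.99 times the counting SD for the whole chromosome and 2.87 times for 3p21. The counting SD used here was that over all 26 cells. The level of chromosome 3 was highest in cell 21, at 1.29 times the genome mean, and lowest in cell 26, at 0.719. Cell 21 was the highest cell in 3p21, in the flanks, in the rest of the chromosome and in both light and dark sub-bands. It was not high in each band. In cell 21, 3q28 was at 0.435 and 3q24 at 0.401, under the medians of 0.689 and 0.509 over all 26 cells. Cell 21 had the fewest counts of all cells, 20182, so counting error weighs on both values.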

How the data were processed

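Single-cell DamID was measured in 26 KBM7 cells, 1 library each. Per the submitters' processing notes, cutadapt and Bowtie2 2.1.0 were used with genome build hg19. Read counting, bin masking and the expectation: not given in the sources used here. What the authors deposited is, per bin of 100 kb, a linear ratio; that it is observed over expected was taken from the file's name and its values.

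Within a bin the ratios were whole multiples of a step (largest distance 2.42e-13, tolerance 0.001), which gave whole counts and a relative expectation. Totals ran from 20182 to 178941 per cell, median 42448.5. No pair of cells was identical on chromosome 3, and chi-square over degrees of freedom was at least 1.31.

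Levels are mean ratios over the cell mean. Band and sub-band limits and stains were taken from the standard ideogram as general knowledge, rounded to 1 Mb for bands, and not read from an annotation. Genes are background of a band, and no sequence or gene position was used. Regions named were all bands, the 10 highest and lowest windows with at least 8 bins, the windows of 3p21, ends and gap, the 5 highest bins and the longest blocks. The windows at 42 to 44 and 54 to 58 Mb and the pairs of windows within 3p21 were chosen after their values were seen. The region, lists and comparisons were chosen with earlier results of these data known. Alternatives covered averaging, bin filters, capping, cells, thinning to 20000 counts and limits. Procedures were tested on simulated counts (26284 bins): a fold of 2 in 3p21 was recovered as 1.97 and one of 0.4 in 3p12 as 0.401. These folds were taken over chromosome 3 without both stretches. The simulated cells shared the same profile and differed by depth and counting error alone. The simulation thus checks the arithmetic and not the spread between cells. The tools were matplotlib 3.10.9, scipy 1.17.1, pandas 2.3.3 and numpy 2.4.6 under Python 3.11.15.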

Additional observations from a re-analysis of the deposited data

How the results depend on the processing

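The log2 ratio of 3p21 over the rest of the chromosome stayed between 0.94 and 1.03 over 10 alternatives, that of 3p21 over its flanks between 0.90 and 0.94 over 8, and that of light over dark sub-bands between 0.46 and 0.54 over 9. Band 3p21 was above the rest in all 26 cells with its sub-band limits and with the share of bins at 1 or more. In the other alternatives that kept all cells it was above the rest in 25. The ratio of the arms, -0.03, changed sign to 0.014 when cell 22 was left out and to 0.014 when the 6 cells with the lowest coverage, cell 22 among them, were. With ends of 10 Mb the log2 ratio was -0.11 at the short arm end and 0.38 at the long arm end, and the cause was not tested. The count of bins shared by 80% of cells was 335 when a ratio of 0.5 sufficed (17.2%, all used bins 17.8%), 7 when 2 was needed (0.359%, all used bins 0.460%) and 154 when the 6 cells were left out (7.90%, all used bins 8.81%). The count marked in 20% of cells or fewer was 122 when 0.5 sufficed (6.26%, all used bins 6.86%), 1511 when 2 was needed (77.5%, all used bins 75.1%) and 351 after thinning (18.0% of both). The share above that of all used bins, 37.2% on chromosome 3 against 33.5%, was thus not kept at 0.5 or after thinning. No paired analysis was possible because no second group of cells exists to pair with; regions were compared within each cell. Sparse counts limit single bins, and band limits are approximate.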

Other observations

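Correlations of levels across cells are given as a description, since the values of a cell share its library, its depth and the cell mean. Across the 25 cells other than cell 22, the short and the long arm had a Pearson correlation of 0.846 and a Spearman correlation of 0.755, and with cell 22 the values were 0.330 and 0.560. The band whose level varied most closely with that of 3p21 from cell to cell was 3p25. Its Pearson correlation was 0.654 and its Spearman correlation 0.571 over the same 25 cells. The Pearson correlation with 3p21 was also above 0.5 for 3q27 (0.583), 3q23 (0.575), 3p22 (0.569), 3q29 (0.544), 3q22 (0.538) and 3q21 (0.511). The Spearman correlation was below 0.5 for each of these bands, so by rank they followed 3p21 less closely than 3p25 did. The Pearson correlation was between -0.1 and 0.1 for 3p26 (0.026), 3p23 (0.023), 3p13 (0.016), 3p12 (0.036), 3p11 (0.082), 3q12 (-0.096) and 3q24 (-0.048), and -0.194 for 3q28. The level of 3p21 and that of the gene-dense chromosomes 16, 17, 19 and 20 together had correlations of 0.398 and 0.490. With the total count of the cell, the values for 3p21 were 0.00946 and 0.00846.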
